A study of Mus musculus with 6 samples.

Results

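The arms of miR-142a, miR-150 and miR-342, 3 microRNA (miRNA) hairpins known from white blood cells, were followed in small RNA libraries of inflamed mouse pancreas. The 6 members, both arms of each hairpin, are mmu-miR-142a-5p, mmu-miR-142a-3p, mmu-miR-150-5p, mmu-miR-150-3p, mmu-miR-342-5p and mmu-miR-342-3p. They were taken from a table of 1077 mature miRNAs, had counts in all 6 libraries and all passed the filter on low counts. They were chosen by name as leukocyte miRNAs with their levels in these libraries known, including high levels in the libraries numbered 1. Their pattern across libraries is therefore given as a description without a test.

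The 3 HTG libraries, as the labels name them, came from pancreatitis tissue of mice whose blood triglycerides were raised, and the 3 control libraries from pancreatitis tissue of mice without raised triglycerides. Strain, sex, age, the way pancreatitis and raised triglycerides were brought about, and whether each library is 1 animal remain not given in the sources used here. Any p-value thus sets a difference against the spread over 3 libraries a group, some of which may be technical. Pancreas without pancreatitis was not analysed here, so no value tells what pancreatitis itself did to these miRNAs.

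A miRNA is a short RNA that pairs with messenger RNAs through its seed, bases 2 to 8 from its 5′ end, and lowers their output. It is cut from a hairpin whose arms give a 5p and a 3p strand, 1 of which is usually kept in the silencing complex while the other is lost. In the mouse, miR-142 is made in nearly all blood cell lineages and in few other cells, and both of its arms are used. In the mouse, miR-150 is abundant in mature B and T lymphocytes and represses the transcription factor Myb. Blood cells are also a main source of miR-342, which is made from an intron of Evl, a gene of the actin cytoskeleton. They are therefore read as markers of white blood cells in tissues such as the pancreas, whose own acinar, duct and islet cells make other miRNAs.

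The sequences are shown because each arm is counted by its own sequence. RefSeq (GRCm38.p6) held 5 of the 6 members, and miR-150-5p is named only. Capitals mark the seed, and each sequence runs 5′ to 3′.
miR-142a-5p, chr11:87756867-87756887, + strand: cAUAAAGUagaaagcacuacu
miR-142a-3p, chr11:87756903-87756925, + strand: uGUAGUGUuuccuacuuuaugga
miR-150-3p, chr7:45121798-45121819, + strand: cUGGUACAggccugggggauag
miR-342-5p, chr12:108658638-108658659, + strand: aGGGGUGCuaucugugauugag
miR-342-3p, chr12:108658680-108658702, + strand: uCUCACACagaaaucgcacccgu
The 5 seeds all differed, and no other mature mouse miRNA of the RefSeq table carried any of them. No member shared its 6 counts with another row of the table.

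The RefSeq hairpins of miR-142a and miR-342 are shown whole, since the balance of their arms is reported below, and Mir150 is named only. Capitals mark the 5p and then the 3p arm.
Mir142, chr11:87756864-87756927, + strand: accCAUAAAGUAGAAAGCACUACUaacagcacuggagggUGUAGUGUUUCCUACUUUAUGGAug
Mir342, chr12:108658620-108658718, + strand: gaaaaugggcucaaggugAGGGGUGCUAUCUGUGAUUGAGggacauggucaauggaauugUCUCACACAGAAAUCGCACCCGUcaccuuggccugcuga
In GENCODE M21 on GRCm38, Mir142 lies in an intron of the noncoding host gene Mir142hg and Mir342 in an intron of Evl. Mir150, on chromosome 7 from 45121757 to 45121821 (+ strand), overlaps no other annotated gene. A second hairpin, Mir142b, is annotated on the opposite strand of Mir142. Whether reads were counted by strand is not given in the sources used here. Mature miR-142b, antisense to miR-142a-3p, had 5, 2 and 0 counts in HTG 1, 2 and 3 and 3, 0 and 1 counts in control 1, 2 and 3.

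Total counts ranged from 6514498 to 18384606 in the HTG libraries and from 8920079 to 19773579 in the control libraries. Levels are CPM, counts scaled to the size of the library, divided by the library's factor from the trimmed mean of M-values (TMM). They are not divided by length, and the members with a sequence here are 21 to 23 bases long. A count of 0 would allow at most 0.387 CPM, taking 3 counts as the limit. The acinar markers miR-148a-3p, miR-216a-5p, miR-216a-3p, miR-216b-5p and miR-217-5p summed to 318171, 528212 and 510775 CPM in HTG 1, 2 and 3 and to 437640, 414316 and 319379 CPM in control 1, 2 and 3, with none at 0. Acinar miRNAs thus made up much of every library, least in HTG 1 and control 3. The libraries numbered 1 stood apart from the other 4 in both groups. Among the 488 miRNAs that passed the filter on low counts, 99 were higher in both libraries numbered 1 than in any other library, or 20.3%, and 62 were lower, or 12.7%.

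The most abundant member was miR-142a-5p. It stood at 2204, 169.8 and 169 CPM in HTG 1, 2 and 3, and at 1236, 473 and 221 CPM in control 1, 2 and 3. HTG 1 was the highest library and control 1 the next, while HTG 2 and 3 were the lowest, so that the HTG values lay on both sides of all control values. The partner arm miR-142a-3p was likewise highest in the libraries numbered 1 and lowest in HTG 2 and 3, at 978, 116 and 134 CPM in HTG and 566, 388 and 177 CPM in control. Between the highest and the lowest library the range was 13.0-fold for the 5p and 8.45-fold for the 3p arm. In bulk tissue fewer cells of a type and less RNA per cell cannot be told apart, here and for every level that follows.

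For miR-150-5p, the lymphocyte miRNA, the levels were 1726, 46.7 and 46.2 CPM in HTG 1, 2 and 3, and 798, 66.2 and 103 CPM in control 1, 2 and 3. HTG 1 was 37.1 times the geometric mean of the other HTG libraries, and control 1 was 9.65 times that of the other control libraries. Over the 6 libraries its log2 level had a standard deviation (SD) of 2.25, rank 1 among the 488 tested miRNAs. The minor arm miR-150-3p, at 19.2, 0.431 and 1.40 CPM in HTG and 11.0, 0.461 and 1.01 CPM in control, also had the libraries numbered 1 on top. Its low values rest on few reads. HTG 2 held 7 counts, with an exact 95% Poisson interval of 0.173 to 0.889 CPM, and control 2 held 4 counts, with an interval of 0.126 to 1.18 CPM. These intervals cover counting error alone, because PCR copies of 1 molecule are counted as separate reads.

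The main arm of miR-342 varied less than the arms of miR-142a and miR-150. The main arm, miR-342-3p, stood at 134, 28.3 and 35.6 CPM in HTG 1, 2 and 3, and at 74.0, 49.4 and 72.5 CPM in control 1, 2 and 3. HTG 1 was again highest and HTG 2 and 3 lowest, but control 1 and control 3 were close together. The Poisson intervals of those control values overlap in the plot of levels by library. Control 1 was 1.24 times the geometric mean of the other controls, where HTG 1 was 4.21 times that of its group. For miR-342-5p, at 13.3, 0.863 and 3.23 CPM in HTG and 4.43, 3.23 and 4.71 CPM in control, control 3 was above control 1, so both libraries numbered 1 were not on top. Its highest library was 15.4 times its lowest, against 4.72 times for miR-342-3p. The SD of the log2 level ranked 37 for miR-342-3p and 14 for miR-342-5p among the 488, and 5, 10 and 3 for miR-142a-5p, miR-142a-3p and miR-150-3p.

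**Figure D1:**
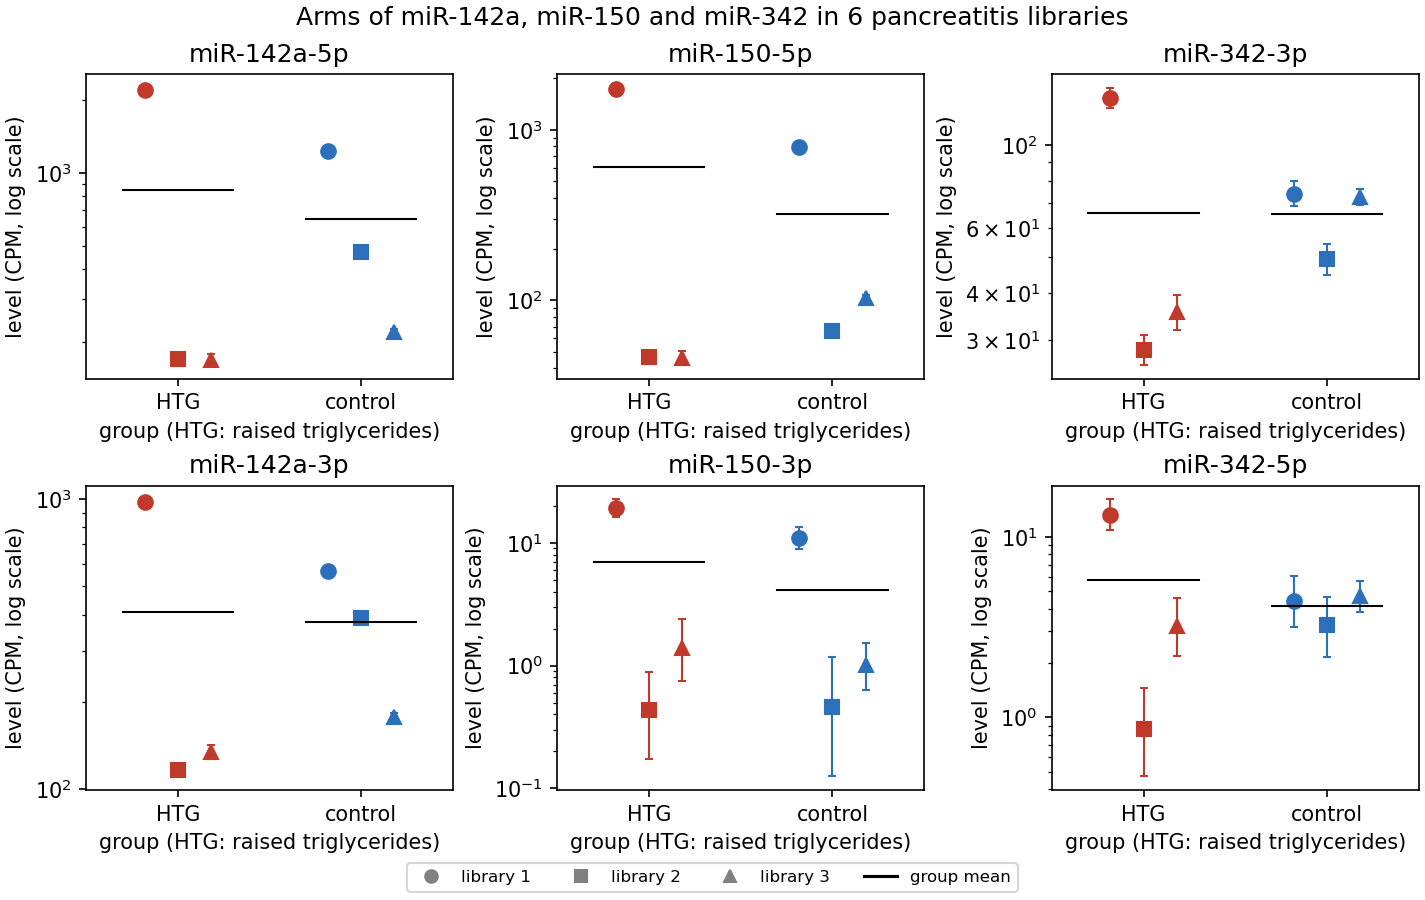
Level of each arm in each library, in CPM on a log axis, with HTG on the left and control on the right of each panel. Points are libraries, bars exact 95% Poisson intervals on the count, and lines group means; the circle of HTG 1 is the highest point of every panel, from 13.3 CPM for miR-342-5p to 2204 CPM for miR-142a-5p.

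By mean over all 6 libraries the order was miR-142a-5p at 746 CPM, miR-150-5p at 464, miR-142a-3p at 393, miR-342-3p at 65.5, miR-150-3p at 5.59 and miR-342-5p at 4.96. The places of miR-150-5p and miR-142a-3p were not stable. HTG 1 and control 1 had more miR-150-5p than miR-142a-3p, and the other 4 libraries had less. The last places changed too, with more miR-150-3p than miR-342-5p in HTG 1 and control 1 and less in the others.

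Whether HTG changes the level of these miRNAs in an inflamed pancreas was tested with edgeR's quasi-likelihood test over all 488 miRNAs. No member passed the threshold of 0.05 on the Benjamini-Hochberg adjusted p in either direction, where 0% of all miRNAs passed. The adjusted p was 0.996 for each of the 6, and none was under 0.05 unadjusted, against 2.46% of all miRNAs. The main lymphocyte strand, miR-150-5p, averaged 606 ± 969.7 CPM in HTG and 322 ± 412 CPM in control (SD, n = 3 each). Its log2 fold change was 0.91 ± 1.50 (standard error, SE). Its 95% interval ran from -2.60 to 4.43, which leaves room for a large change either way. For miR-142a-5p the averages were 848 ± 1175 CPM in HTG and 643 ± 528 CPM in control, with a log2 fold change of 0.40 ± 1.07. For miR-142a-3p they were 409 ± 492 CPM in HTG and 377 ± 195 CPM in control, with 0.12 ± 0.84. The averages of miR-342-3p were 65.8 ± 58.8 CPM in HTG and 65.3 ± 13.8 CPM in control, with a log2 fold change of 0.0058 ± 0.56 and an interval from -1.31 to 1.32. The minor arms had 0.76 ± 1.50 for miR-150-3p and 0.46 ± 0.84 for miR-342-5p. The median SE over all tested miRNAs was 0.29, below that of every member.

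The groups overlapped for all 6 members, while they did not overlap for 7.99% of all miRNAs. All 6 fitted fold changes lay above 0, as did 49% of all miRNAs, with a median of 0.43 for the members and -0.0076 for all. That sign rested on single libraries. Without HTG 1 all 6 were below 0, with a median of -1.73 and adjusted p between 0.495 and 0.630 in edgeR. Without control 3, miR-142a-3p (-0.24) and miR-142a-5p (-0.032) were below 0, and without control 2, miR-342-3p (-0.17). Without control 1 the fold change of miR-150-5p was 2.86 and that of miR-150-3p 3.20, and none of the 6 passed. The fitted value also follows the mean of the counts, which a single high library can carry. The ratio of arithmetic means for miR-150-5p was 1.88, while the ratio of geometric means was 0.881, and for miR-142a-5p these were 1.32 and 0.789. On a log scale, in limma-voom, 5 of the 6 lay below 0, with adjusted p of 0.998.

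Over all tested miRNAs, HTG 1 and control 1 deviated together from their group means (correlation 0.48). Among the libraries numbered 2 and 3 the correlations ran from 0.19 to 0.28, and HTG 2 correlated more with control 3 than with control 2. No label states a pairing, and comparison within each number is given as an alternative. For miR-150-5p, HTG 1 was 2.16 times control 1, HTG 2 was 0.706 times control 2, and HTG 3 was 0.448 times control 3. For miR-142a-5p these ratios were 1.78, 0.359 and 0.767, and for miR-142a-3p 1.73, 0.298 and 0.760. For miR-342-3p they were 1.80, 0.573 and 0.491. In each of these 4 miRNAs HTG was thus higher in the pair numbered 1 and lower in the pairs numbered 2 and 3. With the library number as a block in edgeR, the log2 fold changes were -0.19 ± 0.40 for miR-150-5p, -0.34 ± 0.39 for miR-142a-5p, -0.45 ± 0.43 for miR-142a-3p and -0.34 ± 0.37 for miR-342-3p (SE). They were -0.19 ± 0.66 for miR-342-5p and 0.53 ± 0.40 for miR-150-3p, the only value above 0. The block brought no call, with an adjusted p of 0.989 for each member.

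The 4 libraries numbered 2 and 3 were also read alone, a choice made with the earlier results known. Every member but miR-150-3p was lower there in both HTG libraries than in both controls, as were 27.3% of all 509 miRNAs tested. For miR-342-5p this rested on a near tie, with HTG 3 at 3.226 CPM (30 counts) and control 2 at 3.229 CPM (28 counts). The Poisson intervals of these 2 values overlap. The log2 fold change was -0.77 ± 0.22 for miR-150-5p, -0.95 ± 0.34 for miR-142a-5p, -1.09 ± 0.36 for miR-142a-3p and -0.84 ± 0.23 for miR-342-3p (SE, n = 2 each). Their unadjusted p in edgeR were 0.0110, 0.0299, 0.0207 and 0.00882, a level reached in the lower direction by 5.89% of all miRNAs. None passed the adjustment in edgeR, with adjusted p of 0.229, 0.293, 0.277 and 0.229, where 0% of all miRNAs passed in that direction. The minor arms had -0.93 ± 0.66 for miR-342-5p and 0.26 ± 0.82 for miR-150-3p. Islet and acinar markers lay above 0 in these 4 libraries. Of the 3 islet markers, 2 were called higher in HTG. The log2 fold change was 1.35 ± 0.13 for miR-7a-5p and 1.42 ± 0.14 for miR-7b-5p. Each had an adjusted p of 0.00441 in edgeR, where 0.786% of all miRNAs were called higher. Reads of these closely related miRNAs may not be told apart by the counting. The third islet marker, miR-375-3p, had 0.29 ± 0.13 with an adjusted p of 0.365 in edgeR. All 5 acinar markers were above 0, with a median of 0.39, and none passed. The part of these cells in the member levels was not tested.

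**Figure D2:**
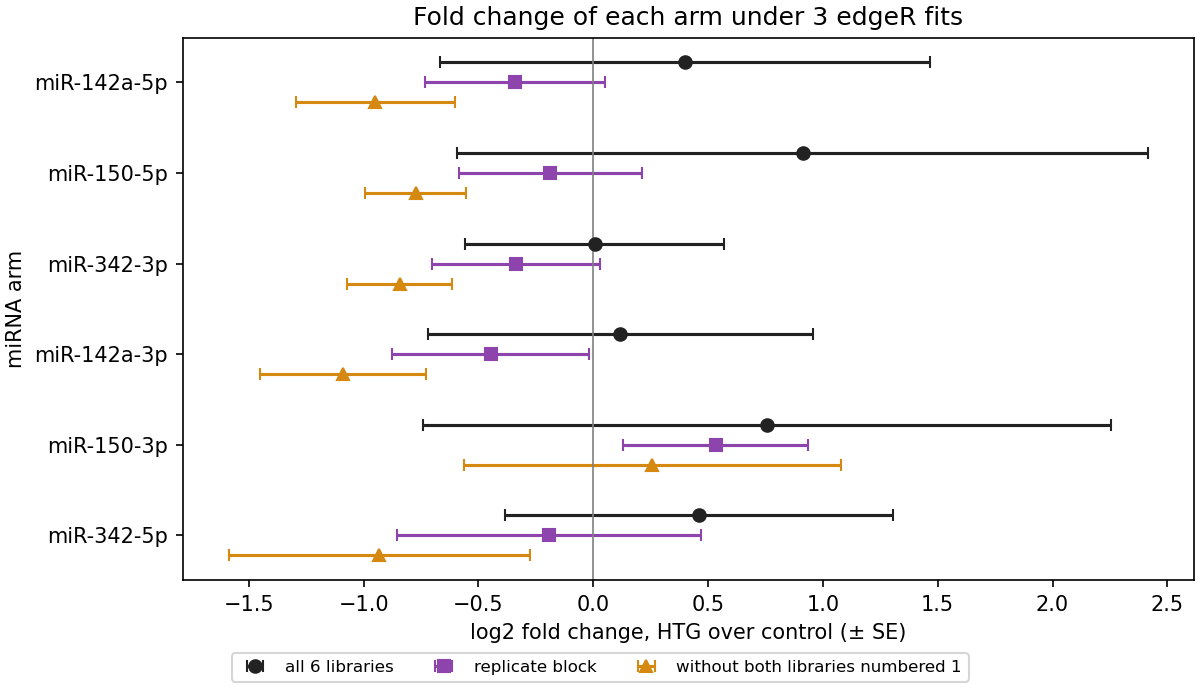
Log2 fold change of each arm, HTG over control, from edgeR with all 6 libraries (circles), with the library number as a block (squares) and without both libraries numbered 1 (triangles); bars are ± 1 SE. For miR-150-5p the value was 0.91 with all libraries and -0.77 without those numbered 1, and miR-150-3p stayed above 0 in these 3 fits.

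The balance of the arms within a hairpin needs no scaling between libraries. In miR-142a the 5p strand held 69.3%, 59.5% and 55.8% of the counts of both arms in HTG 1, 2 and 3, and 68.6%, 55.0% and 55.6% in control 1, 2 and 3. The libraries numbered 1 lay above the other 4, with 95% Wilson intervals of 68.7% to 69.8% in HTG 1 and 67.9% to 69.3% in control 1. The highest of the other intervals, in HTG 2, ended at 60.9%. The 5p arm thus exceeded the 3p arm 2.25 times in HTG 1 and 2.18 times in control 1, and between 1.22 and 1.47 times elsewhere. Between the groups the mean 5p share was 61.5% ± 6.97 in HTG and 59.7% ± 7.70 in control (SD, n = 3 each). The log2 ratio of 5p to 3p differed by 0.11 (exact two-sided permutation p = 0.5, adjusted over the 3 hairpins 0.75, smallest possible p 0.1). Paired by library number, this ratio was higher in HTG in all 3 pairs, at 1.17, 0.55 and 0.34 in HTG 1, 2 and 3 and at 1.13, 0.29 and 0.32 in control 1, 2 and 3. In the pairs numbered 1 and 3 the Wilson intervals of the 5p share overlapped. The exact paired permutation p was 0.25, the smallest that 3 pairs allow. Unpaired, without HTG 1, control 2 or control 3 the difference was below 0, at -0.13, -0.037 and -0.019.

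In miR-150 the 5p strand held 98.9%, 99.1% and 97.1% in HTG 1, 2 and 3, and 98.6%, 99.3% and 99.0% in control 1, 2 and 3. HTG 3 was lowest, with 430 counts of the 5p and 13 of the 3p arm and a Wilson interval of 95.04% to 98.3%. The log2 ratio of 5p to 3p was 6.10 ± 0.92 in HTG and 6.67 ± 0.49 in control (SD, n = 3 each), a difference of -0.58 (exact permutation p = 0.5, adjusted 0.75). In miR-342, where the 3p strand dominates, the 5p share was 9.06%, 2.96% and 8.31% in HTG 1, 2 and 3, and 5.65%, 6.14% and 6.09% in control 1, 2 and 3. The controls were close together and the HTG libraries lay on both sides of them. The difference of the log2 ratio was 0.038 (exact permutation p = 1, adjusted 1), and its SD was 0.95 in HTG and 0.070 in control. Without HTG 1, HTG 3 or control 1 the difference was below 0, at -0.27, -0.20 and -0.0023. The extremes rest on few 5p reads, 14 in HTG 2 and 103 in HTG 1.

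**Figure D3:**
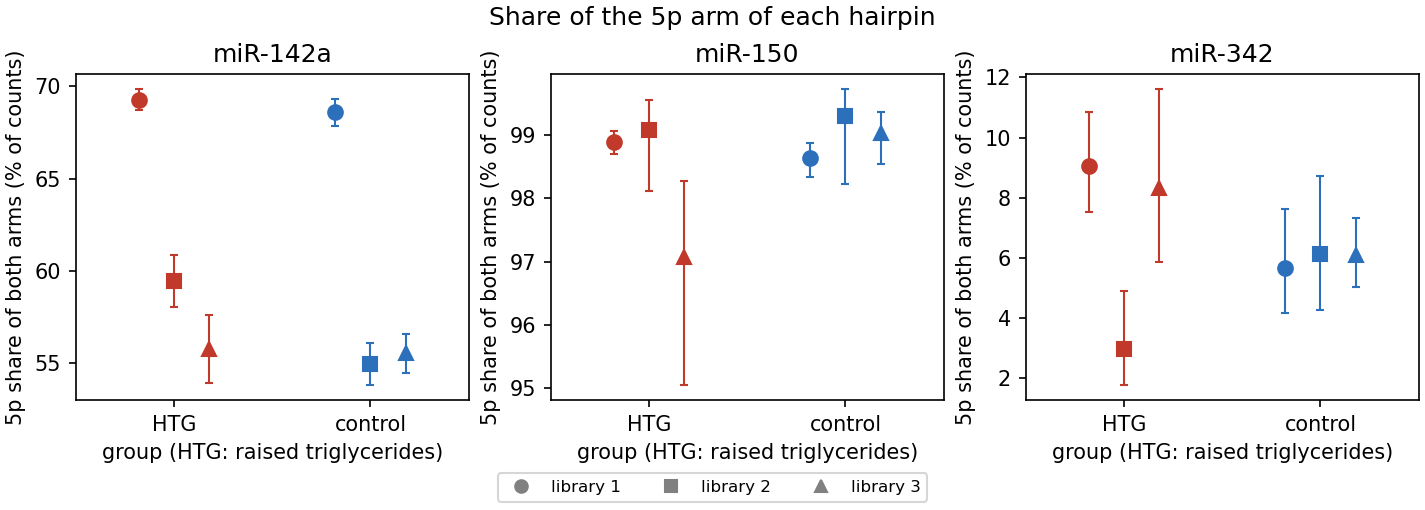
Share of the 5p arm in the counts of both arms of each hairpin, in percent, with HTG on the left and control on the right. Points are libraries and bars 95% Wilson intervals for counting error; the axes do not start at 0, and miR-142a shows both libraries numbered 1 near 69% with the other 4 between 55.0% and 59.5%.

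Together the members held 0.603%, 0.0319% and 0.0353% of all counts in HTG 1, 2 and 3, and 0.263%, 0.0953% and 0.0641% in control 1, 2 and 3. HTG 1 was highest and the other HTG libraries lowest. The mean share was 0.223% ± 0.329 in HTG and 0.141% ± 0.107 in control (SD, n = 3 each), with p = 1 in the exact two-sided permutation test, and without HTG 1 the difference was -0.107 percentage points. The make-up of that share differed between libraries as well. The lymphocyte miR-150 gave 34.4%, 13.0% and 12.2% of the member counts in HTG 1, 2 and 3, and 30.1%, 6.80% and 18.0% in control 1, 2 and 3. The pan-leukocyte miR-142a gave between 62.7% and 78.9% in HTG and between 67.0% and 87.8% in control.

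Between hairpins the ratio was thus not constant. Counts of miR-150-5p were 12.9, 1.65 and 1.30 times those of miR-342-3p in HTG 1, 2 and 3, and 10.8, 1.34 and 1.42 times in control 1, 2 and 3. The libraries numbered 1 were far above the rest, and the other 4 were within a narrow band. Against miR-142a-5p, miR-150-5p came to 78.3%, 27.5% and 27.3% in HTG and 64.5%, 14.0% and 46.7% in control, a ratio that also set control 2 and control 3 apart.

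The miRNAs whose profiles were most like the members' were sought by the root mean square (RMS) difference of log2(CPM + 0.5), each profile centred on its own mean over the 6 libraries, among 295 other miRNAs with a mean of at least 10 CPM. Nearest to both miR-142a-5p (RMS 0.48) and miR-150-5p (0.47) was miR-3964, where the median candidate was at 1.45 and 2.06. It stood at 49.3, 0.986 and 1.51 CPM in HTG 1, 2 and 3, and at 22.5, 4.15 and 2.51 CPM in control 1, 2 and 3. It met the cut on the mean only through HTG 1 and control 1, as every other library lay below 10 CPM. A scarce miRNA can enter the candidates by being high in those libraries, as miR-142a-5p and miR-150-5p are. The cut thus favours such profiles. Then came miR-338-3p (0.67 to miR-142a-5p and 1.28 to miR-150-5p), miR-467e-5p (0.69 and 1.35) and miR-338-5p (0.71 and 1.35). The arms of miR-338, which is made from an intron of Aatk and is known from neural tissue, were higher in control 1 than in HTG 1, unlike the members, at 35.9 CPM in HTG 1 and 44.7 CPM in control 1 for the 3p arm.

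The mature miR-3964 comes from a hairpin on chromosome 15, at chr15:29713337-29713356 on the - strand, yet shares a run of 13 bases with miR-142a-5p, the longest that any of the members with a sequence shared with the other 900 mature miRNAs that have both a row and a RefSeq sequence. Both sequences are shown with this run in capitals.
miR-142a-5p: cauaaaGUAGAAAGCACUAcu
miR-3964: auaagGUAGAAAGCACUAaa
The run covers bases 7 to 19 of miR-142a-5p and 6 to 18 of miR-3964. How reads with mismatches or with several matches were counted is not stated in the sources used here. Some rows carried the same counts in every library, such as miR-199a-3p and miR-199b-3p, so the same reads may stand in more than 1 row. Whether reads of miR-142a-5p are among the counts of miR-3964 was not tested. Counts of miR-3964 came to 2.24%, 0.581% and 0.888% of those of miR-142a-5p in HTG 1, 2 and 3, and to 1.82%, 0.878% and 1.14% in control 1, 2 and 3, highest in the libraries numbered 1.

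For miR-342-3p the nearest profile was miR-155-5p (RMS 0.27, median candidate 0.75), a miRNA of activated B cells, T cells and macrophages. It stood at 196, 39.0 and 58.8 CPM in HTG 1, 2 and 3, and at 109.8, 87.4 and 71.5 CPM in control 1, 2 and 3. HTG 2 and 3 were again the lowest, as for miR-342-3p. Next were miR-146a-5p (0.41), which is induced by the inflammatory factor NF-kB, miR-15b-5p (0.42), of a family that restrains the cell cycle, and miR-669c-5p of the Sfmbt2 intron cluster (0.42). No likeness over 6 libraries of which 2 stand apart separates these miRNAs by cell of origin.

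**Figure D4:**
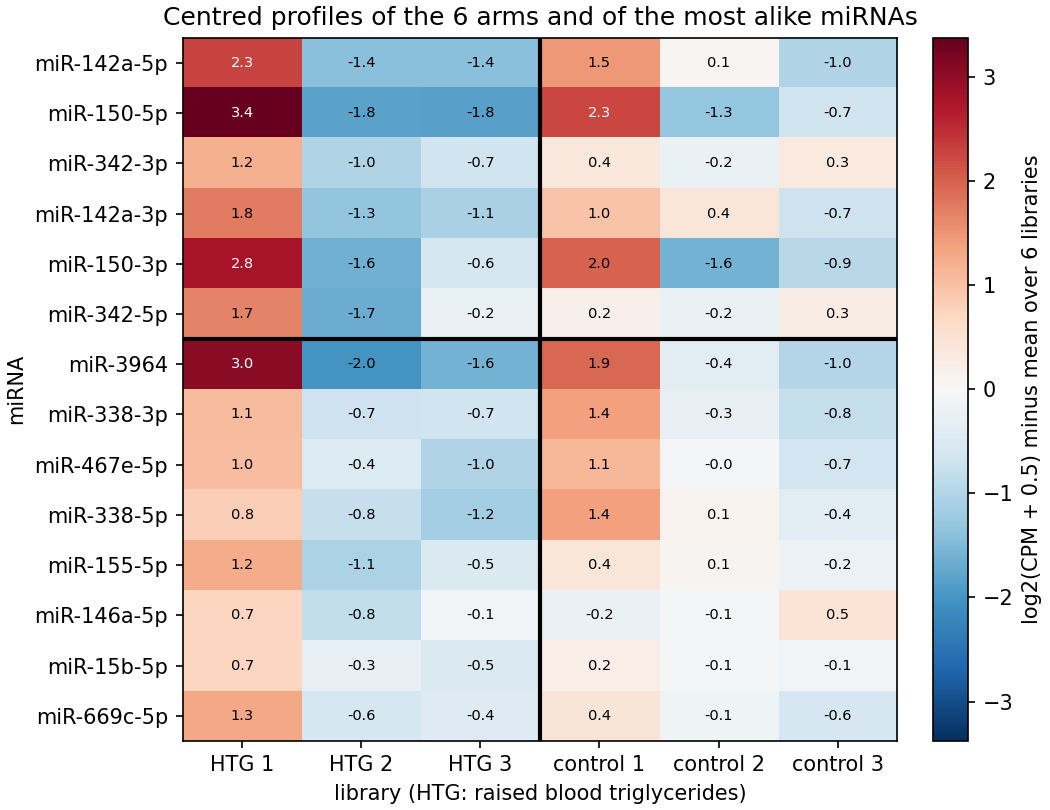
Centred log2(CPM + 0.5) of the 6 arms (above the line) and of the miRNAs with the most alike profiles (below it) in the 6 libraries, HTG left and control right; red is above and blue below the miRNA's own mean. Every row is highest in HTG 1 or control 1, and miR-150-5p and miR-3964 span the widest range.

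Of 15 other leukocyte miRNAs listed, 10 passed the filter. In edgeR 3 had a log2 fold change above 0 and 7 below, and none passed, with a median of -0.039 against -0.0076 over all miRNAs. Only miR-155-5p among these 10 had both libraries numbered 1 on top. The neutrophil and macrophage miRNA miR-223-3p ran otherwise, at 993, 769 and 948 CPM in HTG and 663, 3510.1 and 1695 CPM in control, with control 1 lowest and control 2 highest. Its partner miR-223-5p, at 8.13, 7.27 and 7.74 CPM in HTG and 4.77, 14.9 and 11.9 CPM in control, had the same lowest and highest library. Values for miR-146a-5p were 346, 118 and 197 CPM in HTG and 181, 203 and 292 CPM in control. The macrophage miR-511-3p, from an intron of the mannose receptor gene Mrc1, was at 15.4, 5.61 and 11.0 CPM in HTG and 8.75, 16.4 and 21.8 CPM in control.

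The NF-kB-linked miR-146b-5p stood at 475, 227 and 318 CPM in HTG and 307, 484 and 588 CPM in control. Its partner miR-146b-3p (log2 fold change 0.65 ± 0.64, SE) and miR-511-5p (0.27 ± 0.46) were scarce, at 0.645 to 3.74 CPM and 1.48 to 4.003 CPM over the 6 libraries. Members of the miR-181 family, which tune lymphocyte development, differed little, with -0.025 ± 0.17 for miR-181a-5p and -0.044 ± 0.15 for miR-181b-5p. Without the libraries numbered 1, 10 of the 11 leukocyte miRNAs then tested lay below 0, with a median of -0.61 against 0.024 over all, and none passed. That choice of libraries was made with the earlier results known. The 11 count both arms of miR-223, miR-146b and miR-511, and include miR-147-5p, which did not pass the filter with all 6 libraries. At 0 in at least 1 library were miR-155-3p, miR-146a-3p, miR-147-5p and miR-142b.

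Markers of other cells were read beside the members because the libraries numbered 1 stand apart in many miRNAs. The 4 erythroid markers were all highest in both libraries numbered 1, with sums of 1078, 664 and 461 CPM in HTG 1, 2 and 3 and 959, 513 and 413 CPM in control 1, 2 and 3. The smooth muscle pair miR-143-3p and miR-145a-5p summed to 33064, 16751 and 19185 CPM in HTG and 57766, 22999 and 13819 CPM in control, and both were on top in the libraries numbered 1. The liver marker miR-122-5p was scarce, between 1.11 and 6.58 CPM in HTG and between 1.78 and 7.501 CPM in control, and it too was highest in HTG 1 and control 1. Sums of the endothelial pair lay between 8492 and 8684 CPM in HTG and between 7819 and 9322 CPM in control, with neither miRNA on top in both libraries numbered 1. The same held for all 5 acinar, 3 islet, 4 stellate and mesenchymal and 4 striated muscle markers. The sums of the islet markers were 38083 to 50002 CPM in HTG and 36259 to 43939 CPM in control. Stellate and mesenchymal markers summed to 4055 to 4431 CPM in HTG and 4795 to 5844 CPM in control, and striated muscle markers to 193 to 249 CPM in HTG and 191 to 603 CPM in control. No erythroid, smooth muscle, endothelial, islet, stellate or striated muscle marker was at 0 in any library. The part of blood, vessel wall or other tissue in the member levels was not tested.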

How the data were processed

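Small RNA was sequenced from 3 HTG and 3 control libraries of mouse pancreatitis tissue, with Trizol extraction and a NEXTflex v3 kit per the labels' protocols. The submitters' processing notes name Bowtie 1.1.1 and GRCm38, while trimming and the miRNA annotation remain not given in the sources used here. Read counts per mature miRNA were deposited as raw values, per the file headers. The authors also gave TPM, which in all 4657 cells above 0 was the count over 1 total per library (within 0.1% or 0.02 TPM), with no length term.

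Counts of the 488 miRNAs passing filterByExpr (minimum count 10, minimum total 15) went into edgeR 4.0.16 under R 4.3.3, with TMM scaling and Benjamini-Hochberg adjustment over all of them, after tests on simulated data. DESeq2 1.42.0 and limma 3.58.1 served as alternatives, beside other scalings, no filter, 2 pseudocounts on TPM, a replicate block and left-out libraries. Arm ratios and shares were compared by exact permutation (SciPy 1.17.1). Deviations from group means over the 488 miRNAs correlated at 0.48, 0.19 and 0.28 between libraries numbered 1, 2 and 3. Pairing by number was therefore run as an alternative, while the main tests were unpaired. However, HTG 2 correlated more with control 3 (0.25), and no label states a pairing. Named miRNAs are the members, the 4 most alike for the main arm of each hairpin, and the tested leukocyte list. Members and lists were chosen with earlier results of these data known.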

Additional observations from a re-analysis of the deposited data

How the results depend on the processing

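The number of members called was 0 under all 16 alternatives. Over all miRNAs the count was 0 in the main comparison (12 unadjusted in edgeR, 19 in DESeq2, 17 in limma-voom), 1 with no filter, 4 without both libraries numbered 1, and 0 to 2 with single libraries left out, the 2 without control 1; with the replicate block it was 0 (27 unadjusted).

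The sign of the fold changes was not stable. In limma-voom, limma on log2(TPM + 1), limma on log2(TPM + 0.1), with the replicate block and without both libraries numbered 1, in this order, miR-142a-3p had -0.45, -0.50, -0.50, -0.45 and -1.09; miR-142a-5p -0.36, -0.39, -0.39, -0.34 and -0.95; miR-150-5p -0.22, -0.22, -0.23, -0.19 and -0.77; miR-342-3p -0.38, -0.36, -0.37, -0.34 and -0.84; and miR-342-5p -0.61, -0.083, -0.30, -0.19 and -0.93. Near 0 in all scalings, miR-342-3p also turned with size factors (-0.029), upper-quartile scaling (-0.073), no filter (-0.013) and DESeq2 (-0.026). With single libraries left out, the ranges were -1.56 to 0.55 for miR-142a-3p, -1.90 to 1.30 for miR-142a-5p, -2.78 to 2.86 for miR-150-5p, -2.22 to 3.20 for miR-150-3p, -1.002 to 0.30 for miR-342-3p and -1.03 to 0.92 for miR-342-5p. The lowest value was without HTG 1 for each, and all adjusted p were at least 0.495. DESeq2 gave neither a p nor an adjusted p for miR-150-5p (log2 fold change 0.83), so its count of 0 members called rests on the other members.

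The arm ratio difference with single libraries left out ran from -0.13 to 0.38 for miR-142a, -0.91 to -0.05 for miR-150 and -0.27 to 0.58 for miR-342, which was -0.31 without both libraries numbered 1. The summed share differed by -0.107 to 0.178 percentage points with single libraries left out and by -0.0461 without both numbered 1, against 0.0826 with all. Paired by number, arm ratios and share kept their value, and 3 pairs allow no exact p below 0.25. Counts of the minor arms miR-150-3p and miR-342-5p went down to 4 and 14 in a library. For the values that turned, the cause was not tested beyond the libraries left out.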
